A study of Sus scrofa with 12 samples.

Results

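The ubiquitin and proteasome genes described here are the 97 features of the whole-genome count tables whose symbol begins with PSMA, PSMB, PSMC, PSMD, PSME, UBE2 or FBXO, or with USP followed by a digit. The tables hold 20741 features in all. By class, the 97 genes are 8 of the proteasome core particle, 14 of the regulatory particle, 4 proteasome activators, 14 ubiquitin-conjugating (E2) enzymes, 23 F-box proteins and 33 ubiquitin-specific proteases, which are deubiquitinases. The last, PSMC3IP, shares only its prefix with the regulatory subunits and encodes a recombination factor.

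Muscle RNA was sequenced from 12 pigs, 6 labelled high drip and 6 labelled low drip, with 3 females and 3 males at each level. Drip is the fluid that meat loses after slaughter. The pigs were 167 to 189 days old, and no treatment or engineered allele is named in the labels. The muscle and the breed are not given in the sources used here, and 1 library was counted per animal, so each p-value measures the spread between these 12 samples.

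Proteins are marked for destruction by chains of ubiquitin, a small protein that is activated by an E1 enzyme, handed to an E2 enzyme and attached to the target with the help of a ligase. F-box proteins are the target-binding subunits of one large ligase family, the SCF complexes, and deubiquitinases take ubiquitin off again. The proteasome reads the chains with its regulatory particle, which unfolds the protein with a ring of ATPases and feeds it into the core particle, where it is cut. In skeletal muscle the system turns over contractile proteins, and the ligases FBXO32 (atrogin-1) and TRIM63 (MuRF1) are known for their induction when muscle wastes.

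Values are given as CPM, the count of a gene divided by its library's total over all features, corrected with trimmed-mean (TMM) factors and scaled alike in every library. Library totals ranged from 8009627 to 12622043 counts. A long transcript yields more reads than a short one, and no transcript lengths were used here, so CPM is compared between animals and not between genes. The 5 of 10 skeletal muscle markers with an identifier, among them ACTA1 and PYGM, summed to 111441 to 169222 CPM in every library.

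For 3 females, high drip replicate 2 and low drip replicates 1 and 2, the whole-genome table recorded for the animal carried another animal's number. Tables were assigned by that number. It picked the table that shared 737 to 745 of 770 counts with the animal's own region table, against 123 to 136 for the table on record. Separately, 6 libraries held liver transcripts, with albumin at 26.7 to 311 CPM against 0.351 to 2.34 CPM in the other 6. These were high drip replicates 1 to 4 and low drip replicates 5 and 6, so 4 of 6 high drip and 2 of 6 low drip libraries carried them. All 3 high drip females and no low drip female were among them, so in females drip and liver transcripts cannot be told apart. For the genes with the widest differences, values are also given within the libraries with and without these transcripts. Drip folds in these subsets keep sex as a term, and the females of each subset share the same drip level. Such folds therefore rest on males alone. With liver transcripts they compare high drip replicate 4 with low drip replicates 5 and 6. Without them they compare high drip replicates 5 and 6 with low drip replicate 4.

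Of the 97 genes, 81 passed the filter on low counts and were tested. All 14 regulatory subunits and all 14 E2 enzymes passed, as did 4 core subunits, 3 activators, 16 F-box genes and 30 deubiquitinases. The 16 genes below the filter included PSMA8, a testis form of a core subunit, and PSMB11, the catalytic subunit of thymus, which had 0 counts in all 12 libraries. PSME1 was also listed at 0 in all 12. A count of 0 allows up to 3 counts, or 0.233 to 0.356 CPM depending on the library, and covers counting error only. Reads without a unique alignment are not in the gene counts, and their part in such low counts was not tested. PSMB8 and PSMB9, catalytic subunits of the immunoproteasome, had 2 and 20 counts over all 12 libraries. Beside them, 7 of 10 interferon-induced genes had an identifier: IRF7 was at 0 in every library and TAP1 in 9 of 12, while IRF9 ranged from 9.41 to 23.0 CPM and MX1 from 3.85 to 30.6 CPM. The symbols PSMB5, PSMB6, PSMB10, UBE2B, UBE2D3, UBE2G1, UBE2V2 and USP14 matched no identifier, so these genes are not analysed here.

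No member of any class passed the drip test. The fit of high against low drip with sex as a term (edgeR quasi-likelihood test, Benjamini-Hochberg adjustment) called 0 of 10411 features, 0%, and the lowest adjusted p among the 81 genes was 0.999. At an unadjusted p under 0.05 it picked 369 features, 3.54% of those tested (1.66% with a positive and 1.88% with a negative fold), and 2 of the 81 genes, both deubiquitinases with a negative fold. Over all tested features 50.6% of drip folds were positive, and among the 81 genes 38 were. DESeq2 and limma voom also called 0 features. The drip groups overlapped for all 81 genes, against 0.106% of tested features whose groups did not.

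The core particle varied little between animals and showed no drip difference larger than its spread. PSMA1, PSMA3 and PSMA5 form part of the outer rings that gate the chamber, and PSMB7 is one of its cutting subunits. PSMA3 ranged from 129 to 162 CPM with a median of 145 CPM in high drip animals, and from 124 to 156 CPM with a median of 146 CPM in low drip animals. PSMB7 ranged from 130 to 152 CPM in high drip and from 123 to 150 CPM in low drip animals. The high and low animals covered the same span for both genes. All 4 folds were between 0.01 and 0.06 on the log2 scale, with a median of 0.02 and 95% intervals that lay within -0.20 and 0.23.

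The regulatory particle had no drip difference past the test either, with wider intervals than the core. Of its 14 tested subunits, 8 had a positive and 6 a negative drip fold, with a median of 0.02 beside 0.003 over all tested features, and 0 had an unadjusted p under 0.05. PSMC5, an ATPase of the unfolding ring, ranged from 268 to 362 CPM (median 318 CPM) in high drip and from 271 to 376 CPM (median 303 CPM) in low drip animals, a log2 fold of -0.00 ± 0.09 (SE). PSMD4, a ubiquitin receptor, differed by -0.04 ± 0.08. PSMD11, a lid subunit, had the largest positive fold, 0.10 ± 0.14, and PSMD12, also of the lid, the largest negative fold, -0.14 ± 0.13. Within the libraries with and without liver transcripts these folds were -0.25 and 0.36 for PSMD11 and -0.49 and 0.25 for PSMD12. No interval of this class went beyond -0.42 or 0.39.

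Within the 6 libraries with liver transcripts the median fold was below 0 in both particles, at -0.17 in the core and -0.14 in the regulatory particle. Without those libraries the core median was 0.08. These subsets hold 4 against 2 and 2 against 4 animals, but with sex as a term their drip folds rest on males alone. With liver transcripts the fold compares high drip replicate 4 with low drip replicates 5 and 6. Without them it compares high drip replicates 5 and 6 with low drip replicate 4. The part of the liver transcripts in the difference was not tested.

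**Figure D1:**
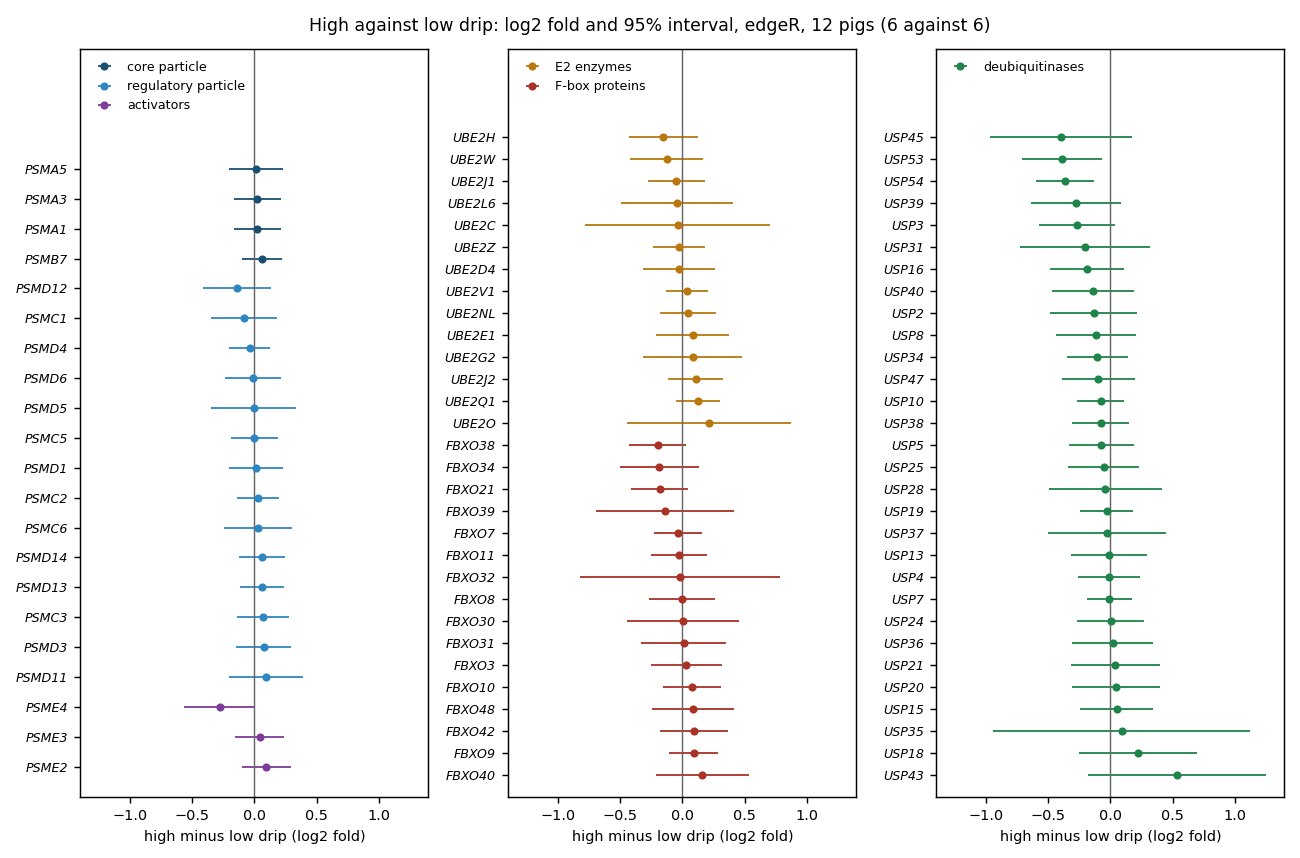
Log2 fold of high minus low drip (x axis) for each of the 81 tested genes (y axis, by class), with 95% intervals from edgeR over 6 high and 6 low drip pigs. All intervals cross 0 but those of USP53 and USP54, which lie below it.

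Among the activators, caps that open the core without the regulatory particle, PSME4 showed the widest difference. PSME4 (PA200) is a large nuclear cap known for the turnover of acetylated histones. It ranged from 258 to 349 CPM with a median of 299.6 CPM in high drip animals and from 289 to 473 CPM with a median of 336 CPM in low drip animals. The groups overlapped, with 2 low drip males at 469 and 473 CPM standing above every other animal. The log2 fold was -0.28 ± 0.13 with an unadjusted p of 0.0544 and an adjusted p of 0.999 in edgeR.

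The PSME4 averages differed between drip levels in males more than in females, without passing the test. High drip males averaged 286 ± 31.4 CPM (SD, n = 3) and low drip males 429 ± 72.3 CPM, while the females averaged 318 ± 39.6 CPM and 312 ± 20.3 CPM. The difference between the sexes in the drip fold was -0.62 ± 0.22 on the log2 scale, with an unadjusted p of 0.0143 and an adjusted p of 1.00 in edgeR. It ranged from -0.75 to -0.54 when each animal was left out in turn. Both of the highest males carried liver transcripts. Within the libraries with liver transcripts the drip fold was -0.88, which compares high drip replicate 4 with both of these males. Within those without it was -0.21, high drip replicates 5 and 6 against low drip replicate 4, also males. The part of liver transcripts was not tested. PSME2, whose product forms a ring with that of PSME1, had a fold of 0.10 ± 0.09, and PSME3, a nuclear cap, 0.04 ± 0.09.

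The 14 E2 enzymes had 7 positive and 7 negative folds, with a median of 0.01, and 0 with an unadjusted p under 0.05. UBE2Q1 had the lowest p of the class: it ranged from 80.3 to 104 CPM (median 99.8 CPM) in high drip animals and from 83.8 to 90.8 CPM (median 87.6 CPM) in low drip animals. The low drip animals lay close together inside the wider high drip range, and the fold was 0.13 ± 0.08 (unadjusted p = 0.147), with -0.13 within the libraries with liver transcripts. UBE2H, which works with the CTLH ligase, had a fold of -0.15 ± 0.13, and of -0.55 within the libraries without liver transcripts.

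UBE2O, a large E2 that also acts as a ligase, was the most variable E2 enzyme at or above 5 CPM. It ranged from 51.8 to 136 CPM with a median of 63.1 CPM in high drip animals and from 41.5 to 125 CPM with a median of 59.7 CPM in low drip animals. Its 3 highest values, 111, 125 and 136 CPM, came from a high drip male, a low drip male and a high drip female. The 95% interval of its fold ran from -0.44 to 0.87, so a difference of this width could not be seen. The sign depended on the animals taken. The fold was 1.04 among the males with liver transcripts, high drip replicate 4 against low drip replicates 5 and 6. Among the males without them it was -1.24, high drip replicates 5 and 6 against low drip replicate 4. UBE2V1, the inactive partner with which UBE2N builds chains linked through lysine 63, was the steadiest E2 enzyme, at 106 to 124 CPM in all animals.

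The 16 tested F-box genes had 9 positive and 7 negative drip folds, with a median of 0.00. FBXO40, a muscle F-box protein that targets the insulin receptor substrate IRS1, ranged from 339 to 629 CPM (median 399.8 CPM) in high drip animals and from 317 to 546 CPM (median 359 CPM) in low drip animals. Its fold was 0.16 ± 0.17 and came to 0.01 without high drip replicate 5, the animal with 629 CPM. FBXO38 and FBXO21 had the lowest p-values of the class, with folds of -0.20 ± 0.11 (unadjusted p = 0.0831) and -0.18 ± 0.11 (unadjusted p = 0.112). With the tables as recorded these were -0.07 and 0.04.

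FBXO32 varied most between animals of all tested members at or above 5 CPM, and the drip groups did not share it out. It ranged from 25.8 to 138 CPM with a median of 69.7 CPM in high drip animals and from 26.0 to 114 CPM with a median of 86.2 CPM in low drip animals. The highest animal had 5.33 times the level of the lowest, and both were high drip males. Each group spanned nearly the whole range, and the drip fold was -0.02 ± 0.38. Males averaged 94.7 ± 39.6 CPM and females 61.9 ± 32.8 CPM (SD, n = 6), a log2 fold of 0.61 ± 0.38 that did not pass (unadjusted p = 0.127, edgeR adjusted p = 0.79). FBXO30 (MUSA1), another F-box gene of muscle wasting, ranged from 20.7 to 49.9 CPM with a fold of 0.01 ± 0.21. Its fold was -0.73 within the libraries with liver transcripts, 0.32 within those without and 0.33 in females alone, and it changed sign in 12 of 27 alternatives.

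TRIM63, the other classical ligase of wasting and no F-box protein, ranged from 326 to 888 CPM (median 695 CPM) in high drip animals and from 591 to 1288 CPM (median 815 CPM) in low drip animals. Its log2 fold was -0.50 ± 0.23 (unadjusted p = 0.0521, edgeR adjusted p = 0.999), and the groups overlapped. The fold was -0.63 (unadjusted p = 0.0156) with liver transcripts as a term, -0.55 in the 9 animals without a conflict, -0.31 with the tables as recorded and -0.24 within the libraries without liver transcripts. Leaving out each animal gave -0.60 to -0.32, the latter without low drip replicate 6. Over the 12 animals FBXO32 and TRIM63 had a Pearson's r of 0.559 and a Spearman's rho of 0.448, given as a description. Without the 2 animals farthest from the median of FBXO32, r was 0.368. FBXO32 had an r of 0.508 with FBXO30 and 0.330 with FBXO40, and the latter came to -0.01 without the 2 farthest animals.

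**Figure D2:**
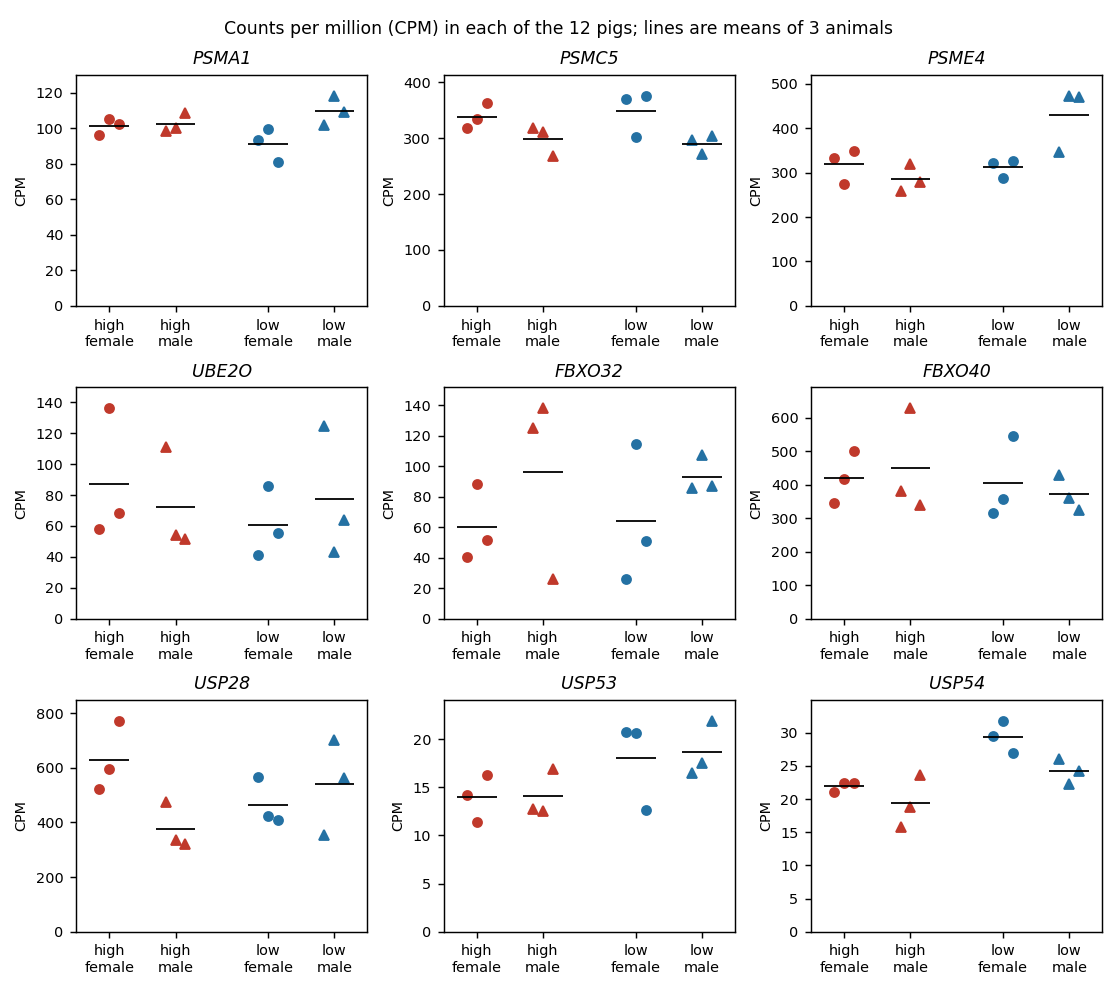
CPM of 9 genes in each pig (y axis, from 0), with animals grouped by drip level and sex on the x axis, circles for females, triangles for males and lines at the mean of 3 animals. The high and low drip animals overlap in every panel, and PSME4 is highest in 2 low drip males.

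The folds of the deubiquitinases were mostly negative, though small. Of the 30 tested, 22 had a negative and 8 a positive drip fold, beside 49.4% negative over all tested features, and the median was -0.06. The members share libraries and vary together, so this count carries no test. The negative count was 13 of 29 in females alone and 22 of 30 in males alone, with medians of 0.03 and -0.18. It ranged from 18 to 24 of 30 when each animal was left out. It was 23 of 30 (median -0.39) within the libraries with liver transcripts and 19 of 30 within those without. The former compares high drip replicate 4 with low drip replicates 5 and 6, all male. The latter compares high drip replicates 5 and 6 with low drip replicate 4, also males. The part of these transcripts was not tested.

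USP54 and USP53, close relatives in the family, were the only 2 of the 81 genes with an unadjusted p under 0.05 for drip. USP54 ranged from 15.8 to 23.7 CPM with a median of 21.8 CPM in high drip animals and from 22.2 to 31.7 CPM with a median of 26.5 CPM in low drip animals. Only 1 low drip animal, at 22.2 CPM, fell inside the high drip range. The fold was -0.37 ± 0.11 (95% interval -0.60 to -0.13, unadjusted p = 0.00453, edgeR adjusted p = 0.999), and it was between -0.45 and -0.32 when each animal was left out. It was -0.56 within the libraries with liver transcripts, -0.30 within those without, and -0.19 with the tables as recorded.

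USP53, which is known from tight junctions, ranged from 11.4 to 16.9 CPM with a median of 13.5 CPM in high drip animals and from 12.6 to 21.9 CPM with a median of 19.1 CPM in low drip animals. Low drip replicate 3, at 12.6 CPM, was below 4 of the 6 high drip animals. The fold was -0.39 ± 0.15 (unadjusted p = 0.0224, edgeR adjusted p = 0.999). It was -0.21 in the 9 animals whose tables had no conflict and -0.11 with the tables as recorded, so its size depends on the assignment of tables. It was -0.64 within the libraries with liver transcripts and -0.16 within those without.

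USP28, a protease that stabilises MYC, differed in opposite directions in the sexes without passing the test. High drip females averaged 629.6 ± 128 CPM and low drip females 465.7 ± 87.8 CPM (SD, n = 3), whereas high drip males averaged 378 ± 85.5 CPM and low drip males 539 ± 175 CPM. The difference between the sexes in the drip fold was -0.95 ± 0.35 (unadjusted p = 0.0172, edgeR adjusted p = 1.00). Taking the recorded tables instead gave -0.64 (unadjusted p = 0.119), and leaving out each animal gave -1.18 to -0.71. USP28 was also higher where liver transcripts were present, at 476 to 770 CPM in those 6 libraries against 322 to 567 CPM in the other 6. Those 6 include every female at high drip and low drip replicates 5 and 6, both male, and the part of liver transcripts in the opposite directions was not tested. USP28 and PSME4 were the only 2 of the 81 genes with an unadjusted p under 0.05 in this fit, which called 0 of 10627 features, 0%, and picked 3.49% at that unadjusted level (1.67% with a positive and 1.83% with a negative value). The value was negative for 52 and positive for 29 of the 81 genes, beside 49.5% negative and 50.5% positive over all features. These genes too share libraries and vary together, so this count carries no test.

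USP19, USP13 and USP2 had drip folds smaller than their errors over the 12 animals. USP19, anchored in the endoplasmic reticulum and linked to muscle wasting, ranged from 100.4 to 138 CPM in high drip and from 100.6 to 134 CPM in low drip animals (fold -0.03 ± 0.10). USP13 ranged from 226 to 414 CPM over all animals (fold -0.01 ± 0.14), and its fold was -0.49 within the libraries with liver transcripts and 0.11 within those without. USP2, a clock-controlled protease, ranged from 100.5 to 200 CPM in high drip and from 120 to 201 CPM in low drip animals (fold -0.13 ± 0.16). The USP2 fold was 0.48 within the libraries without liver transcripts and -0.35 in females alone.

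Sex gave more members at the unadjusted level than drip, and none passed. The sex term of the same edgeR fit called 0 of 10411 features, 0%, and picked 6.52% at an unadjusted p under 0.05, beside 7 of the 81 genes. By direction the features were 3.5% with higher values in males and 3.03% with higher values in females. Of the 7 genes, 5 were higher in males (FBXO48, FBXO11, FBXO3, FBXO10 and USP25) and 2 in females (USP18 and PSMC5), and the lowest adjusted p was 0.668. Males had the higher level for 39 of the 81 genes, beside 50.1% of all features, and for 47 of the 81 beside 61.6% with library totals in place of TMM factors. FBXO48 ranged from 2.81 to 3.64 CPM in females and from 3.87 to 5.46 CPM in males. It was the only member whose sexes did not overlap, which held for 0.317% of tested features, and its log2 fold was 0.47 ± 0.16 (unadjusted p = 0.00929).

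USP18 removes the ubiquitin-like ISG15 from proteins and is induced by interferon. It ranged from 4.73 to 10.19 CPM in females and from 3.49 to 8.19 CPM in males (log2 fold -0.56 ± 0.22, unadjusted p = 0.0238). The summed level of the 7 interferon-induced genes with an identifier ranged from 23.6 to 67.2 CPM in females and from 18.9 to 37.2 CPM in males. The value of 67.2 CPM came from low drip replicate 3, which also had the highest USP18 level. All other females were between 23.6 and 36.3 CPM, inside the male range. The part of this summed level in the USP18 value was not tested. PSMC5 ranged from 302 to 376 CPM in females and from 268 to 317 CPM in males (log2 fold -0.22 ± 0.09, unadjusted p = 0.0247). Over 23 alternatives the PSMC5 sex fold ran from -0.26 to -0.16 and kept its sign. It was -0.16 with age as a term (edgeR unadjusted p = 0.0816) and -0.16 with library totals (edgeR unadjusted p = 0.0705). In a sample of whole muscle, fewer cells of a type and less RNA per cell cannot be told apart.

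Variation between animals differed in size between the classes. The median coefficient of variation over 12 animals was 0.084 in the core particle, 0.116 in the regulatory particle, 0.080 in the 3 activators, 0.150 in the E2 enzymes, 0.162 in the F-box genes and 0.180 in the deubiquitinases, against 0.208 over all tested features. Genes of low counts have more counting noise, and the core subunits had means of 101 to 146 CPM. The steadiest of the 81 genes was PSMC2, an ATPase of the regulatory ring, at 272 to 324 CPM. At or above 5 CPM the most variable of them were FBXO32 (0.494), UBE2O (0.435), USP18 (0.337) and USP28 (0.286).

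**Figure D3:**
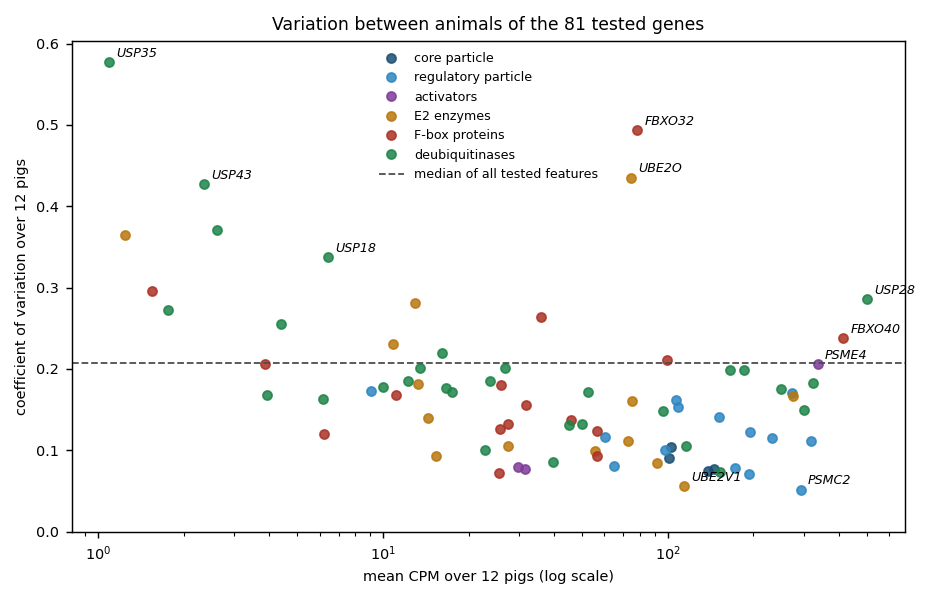
Coefficient of variation over 12 pigs (y axis) against mean CPM (x axis, log scale) for the 81 tested genes, 1 point per gene, coloured by class. The dashed line is the median of all tested features, 0.208, and FBXO32 and UBE2O stand far above genes of like CPM.

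The core particle had the highest median correlation between its members across animals, and the regulatory particle the next. The median pairwise Pearson's r of log2 CPM was 0.453 over the 6 pairs of core subunits and 0.200 over the 91 pairs of regulatory subunits, against -0.002 over all pairs of tested features. It was -0.04 in the E2 enzymes, 0.02 in the F-box genes, 0.08 in the deubiquitinases and -0.26 in the activators. The 18 tested subunits of both particles gave 153 pairs, of which 24.8% had r above 0.5 and 4.58% below -0.5, beside 6.95% and 6.54% of all pairs. The median over these 18 fell from 0.233 to 0.116 without high drip replicate 3, an alternative chosen after seeing the data. Without that animal the regulatory median was 0.079 and that of the deubiquitinases 0.072. The order of these classes held, with little between them. Among members above 10 CPM the medians were 0.201 in the regulatory particle and 0.168 in the deubiquitinases, with 21.8% and 22.1% of pairs above 0.5.

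A score per animal, the mean over a class of log2 CPM less each gene's mean, gave an r of 0.731 and a rho of 0.811 between the core and the regulatory particle over the 12 animals. Without the 2 animals farthest from the median of the core score, r was 0.776. High drip replicate 3 had the highest score in both, 0.14 and 0.17. The core score averaged 0.02 ± 0.08 in high drip and -0.02 ± 0.10 in low drip animals (SD, n = 6), so the joint movement did not follow drip. The activator and deubiquitinase scores had an r of 0.659 and a rho of 0.594, which rests in part on 3 activators.

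Within the proteasome, the subunits did not all vary together. PSMA1, PSMA3, PSMC1, PSMC6 and PSMD12 were high in the same animals, with r of 0.912 between PSMA3 and PSMC6 and 0.798 between PSMC1 and PSMD12. PSMC3, PSMC5, PSMD3, PSMD4 and PSMD13 were high in others, with r of 0.789 between PSMC3 and PSMC5 and 0.793 between PSMD3 and PSMD13. Across these sets 24 of 25 pairs had a negative r, from -0.75 for PSMA1 with PSMC5 and -0.73 for PSMA1 with PSMD3 to near 0 for PSMC1 with PSMC3. For each pair r was also taken without the 2 animals farthest from the median of its alphabetically first gene. Then 18 of 25 were negative, PSMA1 with PSMC5 came to -0.54, and PSMC6 with PSMD13 went from -0.52 to 0.28. Both sets hold ATPases of the same ring, PSMC1 and PSMC6 in the first and PSMC3 and PSMC5 in the second. The sets were picked after their values were seen and carry no test.

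**Figure D4:**
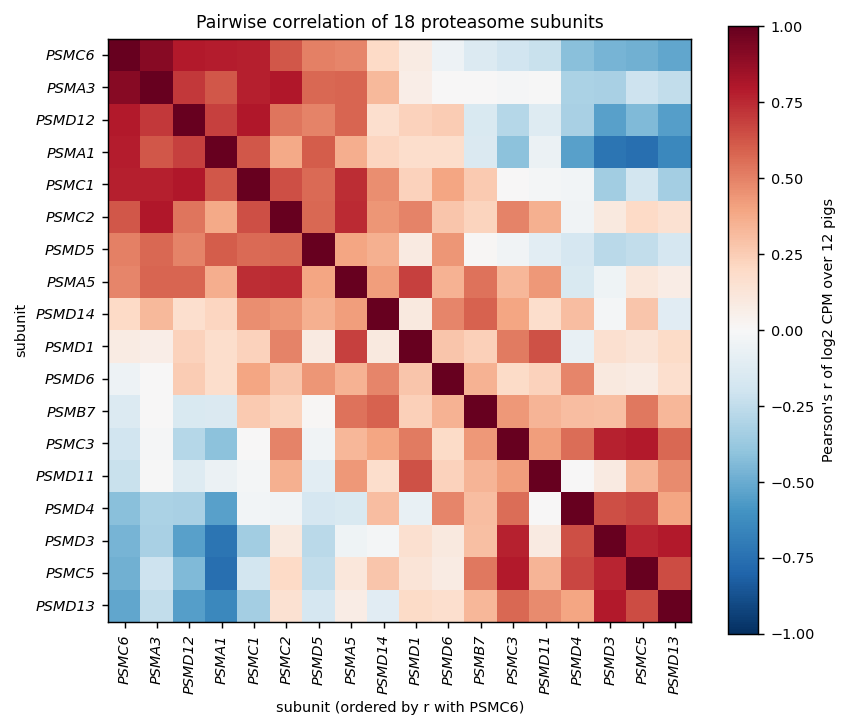
Pearson's r of log2 CPM over 12 pigs for each pair of the 18 tested core and regulatory subunits, on both axes in the order of their r with PSMC6 (red positive, blue negative). A block of positive values at each end of the order and mostly negative values between the ends lie across the sets led by PSMC6 and PSMC5.

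The count ratio of PSMC5 to PSMC6 within a library does not depend on scaling. The genes were taken from these sets after their values were seen, so the ratio restates the same data, and it moves with either gene alone. It ranged from 2.11 to 3.95 in high drip and from 2.20 to 5.19 in low drip animals, and from 2.80 to 5.19 in females and 2.11 to 3.07 in males. The lowest was high drip replicate 6, with 2939 and 1396 counts, and the highest low drip replicate 3, with 3210 and 618 counts. The drip groups covered much the same range.

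A measure of the libraries moved with this ratio. The share of reads that fell in no annotated feature, out of feature, no-feature and ambiguous reads, ranged from 28.6% to 34.3%, with 28.6% to 32.4% in females and 31.2% to 34.3% in males. Its r with the log2 ratio was -0.825 (rho -0.734) over the 12 animals and -0.706 without the 2 farthest. Within the 6 females r was -0.731 and within the 6 males -0.668, the latter resting on 2 animals, since it was 0.885 without the 2 farthest. It was -0.802 within the 6 libraries with liver transcripts, also resting on 2 animals (0.282 without them), and -0.909 within the 6 without (-0.680). With that share PSMC5 alone had an r of -0.827, PSMD13 -0.820 and PSMA1 0.817. Of the 14 regulatory subunits, 5 were below -0.5 and 2 above 0.5, beside 10.5% and 10.8% of all tested features. Age had an r of 0.672 with the log2 ratio. The part of this share or of age in the opposed sets was not tested.

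**Figure D5:**
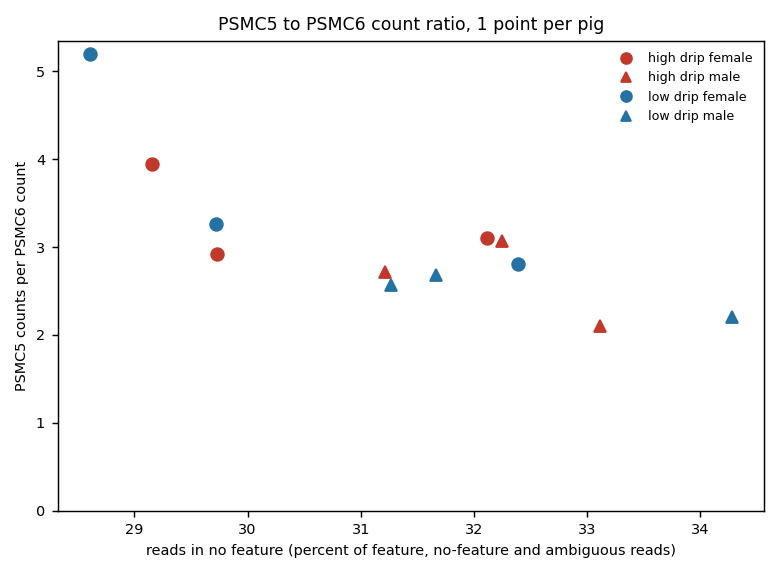
PSMC5 counts per PSMC6 count (y axis, from 0) against the percent of reads in no feature (x axis), 1 point per pig, with red for high and blue for low drip, circles for females and triangles for males. The ratio is highest, 5.19, in the animal with the lowest share, 28.6%, and the drip groups are mixed along the axis.

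Outside the proteasome, the highest pair of each class was FBXO11 with FBXO3 in the F-box genes (r 0.852), USP25 with USP45 in the deubiquitinases (r 0.848) and UBE2NL with UBE2V1 in the E2 enzymes (r 0.787). UBE2NL is named as a copy of UBE2N. Reads without a unique alignment were tallied apart from the gene counts, so reads of near-identical copies may be missing from both. The lowest pair of each class was FBXO11 with FBXO7 (r -0.75), USP24 with USP43 (r -0.82) and UBE2NL with UBE2O (r -0.71). These pairs are the extremes of 120 F-box, 435 deubiquitinase and 91 E2 pairs and are given as a description.

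No other gene of the pathway passed the drip test either, and the lists differed in the sign of their folds, beside 50.6% positive and 49.4% negative over all tested features. Of 7 ubiquitin and E1 genes with an identifier, 6 had a negative drip fold, with a median of -0.14. UBB, a polyubiquitin gene, ranged from 1134 to 1657 CPM in high drip and from 939 to 1727 CPM in low drip animals (fold -0.08 ± 0.14). Of 16 cullin and SCF core genes, 12 had a positive fold (median 0.02), of 25 other ubiquitin ligases 9 (median -0.04), of 14 genes of extraction and shuttling 10 (median 0.03) and of 4 assembly and inhibition genes 1 (median -0.03). None of these lists had a member past the threshold or with an unadjusted p under 0.05.

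Of 13 deubiquitinases of other families, 10 had a negative fold (median -0.08) and 2 an unadjusted p under 0.05, beside 49.4% negative and 3.54% at that level over all tested features. VCPIP1, which acts with the ATPase VCP, ranged from 10.18 to 16.1 CPM in high drip and from 11.01 to 22.9 CPM in low drip animals (log2 fold -0.51 ± 0.18, unadjusted p = 0.0142). OTUD7B, which restrains NF-kappaB signalling, ranged from 58.0 to 67.1 CPM and from 61.7 to 82.6 CPM (log2 fold -0.22 ± 0.09, unadjusted p = 0.0321). The edgeR adjusted p was 0.999 for both. NFE2L1, the transcription factor that raises proteasome genes when the proteasome is inhibited, ranged from 105 to 126 CPM in high drip and from 104 to 151 CPM in low drip animals (fold -0.11 ± 0.11). Of the 7 transcription factors with an identifier 3 had a positive fold, and 0 had an unadjusted p under 0.05.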

How the data were processed

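Raw counts per gene were deposited by the authors in 2 tables per animal, 1 for the whole annotation and 1 for chromosomal regions. Per the submitters' processing notes, reads were handled with TopHat2 2.0.3, Bowtie 0.12.7.0 and HTSeq on Sscrofa10.2. The strand setting is not given in the sources used here, so overlapping genes on opposite strands may share reads. The 5 summary rows of each table were left out of totals. Symbols matched 10349 of 20300 Ensembl identifiers. No transcript lengths, promoters or proteins were used.

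Counts with TMM factors, after the filterByExpr filter, were fitted by the quasi-likelihood method of edgeR 4.0.16 in R 4.3.3, with sex and drip as terms and two-sided tests, and with their product for the interaction. P-values were adjusted over all tested features, with a threshold of 0.05. Folds are log2, with the SE of the fit. Correlations use log2 CPM with a prior count of 2. Alternatives were limma 3.58.1 (voom), DESeq2 1.42.0, other scalings and filters, terms for age (in days) or liver transcripts (albumin above 10 CPM), subsets of animals and other assignments of tables. The drip term of the main edgeR fit was tried on simulated counts with planted drip folds. The other fits and the correlations were not tried in this way.

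The members, classes, lists and named genes were chosen with earlier results of these data known. Named were, per class, the 2 tested members with the highest mean CPM, the 2 with the lowest p for drip and for sex and the most variable at 5 CPM or more, members with an unadjusted p under 0.05 for drip, and 32 listed genes, 8 of them without an identifier. Genes named in the variation, co-variation and other-family paragraphs, FBXO3 and FBXO10 were named after their values were seen. One listed gene is not reported here.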

Additional observations from a re-analysis of the deposited data

Results flagged for a closer look

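In the high drip group, FBXO48 in replicate 5, a male, lay apart from the other 5 animals. It had 5.46 CPM, the next animal 4.09 CPM and the lowest 3.34 CPM. The gap was 0.644 of the group's range, above Dixon's critical value of 0.625. This was 1 of 88 such checks, and chance gives about 1 in 20. Without this animal the sex fold of FBXO48 was 0.41 on the log2 scale.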

How the results depend on the processing

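The drip fit called 0 features in 26 of 27 alternatives, the sex fit in 21 of 23 and the interaction fit in 16 of 17, and no alternative called a ubiquitin or proteasome gene. The exceptions were 3 features for drip within the libraries without liver transcripts, none with a symbol, 2 for sex with DESeq2 (MAPKAPK3 and 1 without a symbol), 1 for sex with no filter on low counts, and 7 for the interaction with DESeq2, among them ALB, TF, FGB and FGG. Features with an unadjusted p under 0.05 numbered 205 to 659 for drip, 509 to 947 for sex and 307 to 701 for the interaction, and leaving out each animal kept all 3 counts of called features at 0. Median drip folds moved beyond the spread between animals within the libraries with liver transcripts, to -0.17 in the core particle, -0.14 in the regulatory particle and -0.39 in the deubiquitinases, and for the deubiquitinases to 0.026 in females and -0.18 in males. Drip folds within the libraries with liver transcripts rest on males, high drip replicate 4 against low drip replicates 5 and 6. Those within the libraries without them rest on high drip replicates 5 and 6 against low drip replicate 4, also males. The cause was not tested. After removing sex and drip means the median pairwise r was 0.559 in the core particle and 0.0066 in the activators. Leaving out each animal, chosen after seeing the data, gave 0.333 to 0.482 in the core particle, 0.079 to 0.263 in the regulatory particle, 0.116 to 0.305 in both particles together and -0.37 to -0.11 in the activators. Of 2814 alternative folds of the named genes 276 changed sign, all from folds that had not passed. Library totals without scaling factors moved the share of positive sex folds from 50.1% to 61.6% of all features. Depth limits genes below about 0.356 CPM, the highest floor of 3 counts in any library. No paired analysis was possible because the replicate numbers only follow the order of the samples and pair no animals.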

Other observations

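Some genes of different classes varied together as closely as subunits of the same particle. FBXO11, an F-box gene, and USP25, a deubiquitinase, had an r of 0.902 and a rho of 0.888 over the 12 animals. UBE2D4, an E2 enzyme, and PSMD11, a lid subunit, had an r of 0.852, and FBXO34 and USP2 an r of 0.861. PSME4 and USP43 went in opposite directions, with an r of -0.85, and of -0.82 without the 2 animals farthest from the median of PSME4. These are extremes of 3240 pairs, picked after their values were seen, with no test. FBXO11 and USP25 were both at an unadjusted p under 0.05 in the sex term, with higher means in males.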
